A study of Mus musculus with 12 samples.

Results

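Cells carrying transcripts of the B cell receptor signalling chain Cd79a were examined in single-cell transcriptomes of the mouse mammary gland. A barcode (the droplet tag that stands for a cell) had to show no fewer than 500 genes and 1000 UMIs (counted transcript molecules), and no more than 5% mitochondrial UMIs, to be kept. It entered the gate with at least 3 UMIs of Cd79a, Cd79b and Ms4a1 together, of which at least 1 was Cd79a, no UMI of Cd3d, Cd3e or Cd3g, under 5 UMIs of C1qa, C1qb and C1qc together, and no UMI of Pdgfra. The gate held 267 of 46257 kept barcodes (0.577%) from 12 libraries. The gate was labelled B cells, but 240 of the 267 cells (89.9%) drew at least 1% of their UMIs from Jchain, the joining chain of secreted immunoglobulin, and the B cell genes Pax5, Fcer2a and Cd22 had few or no UMIs in them, while others such as Blnk were common. They are therefore called Cd79a-gated cells, split into Jchain-rich cells (at least 1% Jchain) and 27 Jchain-poor cells. That split was drawn after the values were seen, so differences between the classes are described and not tested.

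All libraries came from mammary glands of female C57BL/6J mice aged 43 weeks, with 1 library for each of 12 groups. Intact mice received no 4-vinylcyclohexene diepoxide (VCD), a compound that depletes ovarian follicles and is used to model menopause. The other 11 groups received VCD at 160 mg/kg/day for 15 days from an age of 9 weeks. VCD_Vehicle received neither hormone nor polybrominated diphenyl ethers (PBDEs, flame retardants), and VCD_Vehicle_NormEnv was a further such group whose plastic cages could themselves be a source of PBDEs. VCD_E2 received 17β-estradiol (E2) at 1 µg per animal and day for 1 week, VCD_E2_P4 received E2 with progesterone (P4) at 1 mg per animal and day, and VCD_E2_ICI received E2 with 5 mg of the estrogen receptor degrader ICI. VCD_Low_PBDE, VCD_Low_E2 and VCD_Low_E2_P4 were fed PBDE-47, PBDE-100 and PBDE-153 at 0.05, 0.0028 and 0.0063 mg/kg/day for 20 weeks, with no hormone, E2, or E2 and P4. VCD_High_PBDE, VCD_High_PBDE_E2 and VCD_High_PBDE_E2_P4 were fed the same compounds at 1, 0.056 and 0.126 mg/kg/day for 1 week, so the dose of PBDE and the length of feeding cannot be told apart. The number of animals behind a library was not given in the sources used here. The methods state that lymph nodes were cut away before digestion, red cells were lysed and dead cells were removed.

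B cells carry a membrane immunoglobulin that signals through the CD79A and CD79B chains, and they present antigen on MHC class II under the control of factors such as PAX5. On activation some of them become antibody-secreting cells, which shut down the PAX5 programme, turn on PRDM1, IRF4 and XBP1, and enlarge the endoplasmic reticulum to fold and export immunoglobulin. In the mammary gland such cells are known as a source of the polymeric immunoglobulin A of milk, which is held together by the joining chain.

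The libraries held 41737881 to 109224969 UMIs, with a median of 11843 to 20446 UMIs per kept barcode. The 66 pairs of libraries shared 0 to 15 kept barcodes, and 0 barcodes were gated in 2 libraries. Genes of the immunoglobulin constant regions were not among the genes analysed here, so isotypes are not described. AY036118, a ribosomal RNA-derived transcript, set 4 libraries apart in every cell class examined. The fibroblast gate held barcodes with at least 1 Pdgfra and 3 Col1a1 UMIs and no UMI of the immune genes Ptprc, Coro1a and Laptm5. There the level of AY036118 was 23.6 to 36.4 CPM (UMIs of the gene per 1e+06 UMIs) in VCD_E2_ICI and the 3 high PBDE libraries. It was 78.1 to 266 CPM in the other 8. The high PBDE diet and this division of libraries cannot be told apart.

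The genes that chose the cells were found in every library. Cd79a (chromosome 7, 24897381 to 24902197, GRCm38) lay between 557 CPM in VCD_High_PBDE and 1240.3 CPM in VCD_E2_ICI, with a median of 912 CPM. Cd79b (chromosome 11, 106311341 to 106314762) lay between 308 and 498 CPM. Ms4a1, which encodes CD20 (chromosome 19, 11249675 to 11266241), varied more, from 63.8 CPM in VCD_Low_PBDE to 349 CPM in VCD_E2_ICI, and had a UMI in 164 of the 267 cells. At the threshold, 13 cells had exactly 3 UMIs of these genes and drew a median of 3.24% of their UMIs from Jchain. The 34 barcodes just outside, with 2 UMIs, drew a median of 2.89%.

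Jchain (chromosome 5, 88519809 to 88527891) took a median of 9.22% of a cell's UMIs and up to 31.4%. Summed over the gated cells of each library, its level was 68762 CPM in Intact, 93019.5 in VCD_Vehicle, 129758 in VCD_E2, 92232 in VCD_E2_P4, 122212 in VCD_Low_PBDE, 83305 in VCD_Low_E2, 83390.4 in VCD_Low_E2_P4, 111256 in VCD_Vehicle_NormEnv, 38984 in VCD_High_PBDE, 94358 in VCD_High_PBDE_E2, 119836 in VCD_High_PBDE_E2_P4 and 72644 in VCD_E2_ICI. VCD_High_PBDE stood lowest, and 3 of its 7 cells were Jchain-poor. Near the boundary, between 0.5% and 2% Jchain, lay 17 cells.

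Beside Jchain, which drew the split, the plasma cell list held 9 genes (Xbp1, Prdm1, Sdc1, Mzb1, Irf4, Tnfrsf17, Slamf7, Derl3 and Txndc5). Of them, 9 were higher in the Jchain-rich cells than in the T cell gate (at least 2 Cd3d, Cd3e and Cd3g UMIs) and 8 were higher than in the Jchain-poor cells. The T cell gate also required no UMI of Cd79a, Cd79b, Ms4a1 or Pdgfra and under 5 UMIs of C1qa, C1qb and C1qc. Barcodes with transcripts of the gate's own B cell genes were thus left out of it by rule. Among genes of at least 50 CPM, 41.3% of 2584 were higher in the Jchain-rich cells than in the T cell gate and 39.8% of 2462 were higher than in the Jchain-poor cells. Xbp1, the transcription factor of the secretory programme, was at 2006 CPM in Jchain-rich and 561 CPM in Jchain-poor cells. Sdc1, which encodes the plasma cell surface protein syndecan-1, was at 349.8 and 102 CPM, and Tnfrsf17, the BCMA receptor for survival ligands, at 364 and 36.4 CPM. Irf4 was the exception, at 63.6 CPM in Jchain-rich and 97.1 CPM in Jchain-poor cells.

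B cell genes that the gate did not use were unevenly present in the Jchain-rich cells. Pax5 and Fcer2a (CD23) had 0 UMIs in the Jchain-rich cells, which allows a share of up to 1.25% of cells with a UMI, and Cd22 was detected in 0.417% of them. Fcmr, the receptor for immunoglobulin M, was found in 8.75% of Jchain-rich against 51.9% of Jchain-poor cells, and the adaptor Bank1 in 26.7% against 55.6%. Other genes of the receptor pathway were common in both classes, with the adaptor Blnk found in 88.8% and 66.7%, Fcrla, an Fc receptor-like gene of B cells, in 69.2% and 44.4%, and Ralgps2 in 73.3% and 74.1%. The T cell gate had a UMI of Blnk in 4.59%, of Fcrla in 0.746% and of Ralgps2 in 15.0%. Leaving out the gate's own genes, 13 of 23 genes of the receptor signalling list were higher in the Jchain-rich cells than in the T cell gate, and 4 were higher than in the Jchain-poor cells, beside 41.3% and 39.8% of all genes of at least 50 CPM. Depth was unequal, with a median of 15262 UMIs in Jchain-rich and 4780 UMIs in Jchain-poor cells.

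The 20 genes with the largest fold of CPM in the gated cells over the other kept immune cells were led by Jchain, Mzb1, Ly6d, Cd79a, Derl3, Pou2af1, Prg2, Oosp1, Cacna1s and Eaf2. Mzb1, a chaperone of immunoglobulin assembly, was at 4166 CPM against 6.54 CPM in the other immune cells. Derl3, which serves the degradation of misfolded proteins, was at 460.4 against 0.797 CPM, and Pou2af1, a coactivator of octamer-binding factors in B cells, at 346 against 0.408 CPM. Prg2, best known as the eosinophil major basic protein gene, had a UMI in 74.2% of the cells and was at 303 against 0.259 CPM. Cacna1s, a calcium channel subunit known from skeletal muscle, had a UMI in 89.9% of the cells. Epcam was also among the 20, but the other immune cells were defined by having no UMI of it. Cd79a, Cd79b and Ms4a1, also among the 20, were favoured by the rule. Barcodes with at least 3 UMIs of these genes, including Cd79a, were left out of the other immune cells. These genes were chosen by their level in the same cells, so the folds are a description.

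Of 20 genes of protein folding and export in the endoplasmic reticulum, a list drawn up after the values were seen, 20 were higher in Jchain-rich cells than in the T cell gate and 17 were higher than in Jchain-poor cells. Over all genes of at least 50 CPM the shares were 41.3% and 39.8%. Since the list was chosen with the values known, its counts are a description. Their summed level was 28196 CPM in Jchain-rich cells, 17412 in Jchain-poor cells, 3813 in the T cell gate and 4623 in the fibroblast gate. Hspa5, the chaperone BiP, was at 2611 CPM in Jchain-rich and 654 CPM in T cell gate cells. Creld2, a resident of the endoplasmic reticulum induced by its stress response, was at 928 against 26.7 CPM.

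Promoter windows of RefSeq (build GRCm38.p6, 250 bases before to 50 bases after the transcript start) were searched on both strands for the endoplasmic reticulum stress element (CCAAT, any 9 bases, CCACG), which ATF6 is known to bind with NF-Y, the unfolded protein response element TGACGTGG and the octamer ATTTGCAT. Windows were found for 14 of the 20 leading genes and 17 of the 20 folding and export genes. The stress element was present in 0.119% of all 32851 windows, in the window of Derl3 alone among the leading genes, and in 6 of 20 windows of the folding and export genes (Calr, Canx, Creld2, Hsp90b1, Hspa5 and Pdia6). The unfolded protein response element was present in 0.676% of all windows and, among the leading genes, in those of Pou2af1 and Txndc5, and in 0 of 20 windows of the folding and export genes. The octamer, found in 1.74% of all windows, was in none of those of either set. Shown 5′ to 3′, with the match in capitals, are the windows of a pair of genes with each element and of Jchain, which held neither. A match describes letters and is not evidence of binding, and no match says only that these letters are not in the window. The windows were chr10:75893148-75893447, plus strand, for Derl3 (match on the opposite strand), chr2:34771840-34772139, plus strand, for Hspa5, chr9:51213440-51213739, plus strand, for Pou2af1, chr13:38527865-38528164, minus strand, for Txndc5 and chr5:88527848-88528147, minus strand, for Jchain.
Derl3: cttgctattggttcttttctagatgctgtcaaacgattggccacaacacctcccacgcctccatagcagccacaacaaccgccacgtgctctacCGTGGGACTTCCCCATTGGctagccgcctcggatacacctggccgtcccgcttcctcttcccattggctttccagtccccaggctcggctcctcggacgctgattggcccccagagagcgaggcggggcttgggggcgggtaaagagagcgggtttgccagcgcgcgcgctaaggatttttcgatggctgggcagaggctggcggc
Hspa5: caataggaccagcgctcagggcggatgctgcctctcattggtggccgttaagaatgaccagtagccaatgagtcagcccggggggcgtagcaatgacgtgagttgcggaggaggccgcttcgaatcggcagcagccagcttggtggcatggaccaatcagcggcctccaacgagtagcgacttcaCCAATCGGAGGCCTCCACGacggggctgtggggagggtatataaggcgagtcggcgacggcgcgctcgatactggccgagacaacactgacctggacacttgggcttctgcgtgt
Pou2af1: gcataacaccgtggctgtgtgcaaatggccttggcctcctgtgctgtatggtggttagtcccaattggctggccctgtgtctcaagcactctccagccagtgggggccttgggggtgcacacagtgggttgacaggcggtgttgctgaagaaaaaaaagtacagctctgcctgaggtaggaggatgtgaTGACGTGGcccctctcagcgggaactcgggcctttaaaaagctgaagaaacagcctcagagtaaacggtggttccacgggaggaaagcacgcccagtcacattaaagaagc
Txndc5: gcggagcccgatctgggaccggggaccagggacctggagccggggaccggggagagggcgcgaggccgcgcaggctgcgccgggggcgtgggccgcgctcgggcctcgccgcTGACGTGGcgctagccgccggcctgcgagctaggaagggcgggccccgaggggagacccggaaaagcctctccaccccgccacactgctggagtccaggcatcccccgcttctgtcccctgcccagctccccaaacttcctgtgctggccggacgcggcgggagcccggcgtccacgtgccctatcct
Jchain: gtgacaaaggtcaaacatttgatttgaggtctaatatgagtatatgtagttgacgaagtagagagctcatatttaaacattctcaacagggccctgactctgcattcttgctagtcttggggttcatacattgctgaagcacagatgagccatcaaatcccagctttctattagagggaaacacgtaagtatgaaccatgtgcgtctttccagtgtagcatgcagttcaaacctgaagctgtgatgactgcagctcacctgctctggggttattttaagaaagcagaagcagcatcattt

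To compare cells of different depth, each was thinned to 2000 UMIs, which left out 3 Jchain-rich and 1 Jchain-poor cells. The survival receptor gene Tnfrsf17 had a UMI in 88.3% of Jchain-rich cells (50.6% thinned), against 0.0392% of T cell gate cells and 0.274% of fibroblast gate cells, whose median depths were 5846 and 17124 UMIs. Tnfrsf13b, the TACI receptor, was found in 91.2% (37.6% thinned), and Tnfrsf13c, the BAFF receptor, in 52.1% (11.8% thinned). The T cell gate had a UMI of Tnfrsf13b in 10.2% and of Tnfrsf13c in 1.69% of cells, and the fibroblast gate in 0.228% and 0.0847%. Cd28, a costimulatory receptor of T cells also described on long-lived plasma cells, was found in 59.2% of Jchain-rich cells (19.4% thinned), fewer than the 80.5% of the T cell gate (53.3% thinned) and more than the 0.596% of the fibroblast gate. The C1q gate, however, had a UMI of Tnfrsf17 in 13.1% and of Tnfrsf13b in 31.5% of cells. The anti-apoptotic gene Mcl1 was at 915 CPM in Jchain-rich cells against 601 CPM in the T cell gate, and Bcl2 at 79.6 against 112 CPM.

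Il10, which encodes an anti-inflammatory cytokine, had a UMI in 142 of 240 Jchain-rich cells (59.2%, 26.2% thinned). The share was 11.1% (6.82% thinned) in the T cell gate and 0.450% in the fibroblast gate. Lag3, an inhibitory receptor gene, was found in 101 of the Jchain-rich cells (42.1%, 10.1% thinned), against 6.87% (2.55% thinned) of the T cell gate and 7.54% (1.15% thinned) of the fibroblast gate. By library, Il10 was at 49.6 CPM in Intact, 109 in VCD_Vehicle, 71.9 in VCD_E2, 143 in VCD_E2_P4, 377 in VCD_Low_PBDE, 455 in VCD_Low_E2, 203 in VCD_Low_E2_P4, 289 in VCD_Vehicle_NormEnv, 44.6 in VCD_High_PBDE, 124 in VCD_High_PBDE_E2, 301 in VCD_High_PBDE_E2_P4 and 20.6 in VCD_E2_ICI. The 3 low PBDE libraries lay above the 3 libraries of the same hormones without PBDE. VCD_Vehicle_NormEnv lay among the low PBDE libraries, but its cages could be a source of PBDEs, which was not tested. In the comparison of low PBDE with none, described with the other genes later, Il10 did not pass (log2 1.54, SE 0.37, edgeR adjusted p = 0.467).

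Of the 20 genes of the homing receptor list, 4 were higher in Jchain-rich cells than in the T cell gate and 6 were higher than in Jchain-poor cells, beside 41.3% and 39.8% of all genes of at least 50 CPM. Their summed levels were 1462, 2449.8 and 1638 CPM in Jchain-rich, T cell gate and Jchain-poor cells. Ccr10, the receptor for the mucosal chemokine CCL28, had a UMI in 17.5% of Jchain-rich cells (4.22% thinned) and 0.432% of the T cell gate, and Ccr9, a receptor of gut homing, in 12.5% (1.69% thinned) against 0.432%. Cxcr4, the CXCL12 receptor, was found in 66.7% (23.2% thinned), against 55.4% of the shallower T cell gate, and its level was 162 and 171 CPM. The integrin genes Itga4 and Itgb7 were found in 70.4% (15.2% thinned) and 67.1% (17.7% thinned) of Jchain-rich cells, against 62.2% (31.0% thinned) and 75.7% (46.6% thinned). Ccr7, which directs cells to lymph nodes, was found in 7.92% of Jchain-rich cells (2.95% thinned) and in 51.9% of Jchain-poor cells (30.8% thinned).

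Of the 15 genes of the MHC class II list, 3 were higher in Jchain-rich cells than in the T cell gate. Likewise 3 were higher than in Jchain-poor cells, the invariant chain gene Cd74 among them. Over all genes of at least 50 CPM the shares were 41.3% and 39.8%. H2-Aa was at 461 CPM in Jchain-rich, 2194 CPM in Jchain-poor and 7397 CPM in C1q gate cells (at least 5 UMIs of C1qa, C1qb and C1qc), while Cd74 was at 10252, 9053 and 19325 CPM. The C1q gate also required under 3 UMIs of Cd79a, Cd79b and Ms4a1 together and no UMI of Cd3d, Cd3e, Cd3g or Pdgfra. H2-Aa was uneven among libraries whose gated cells were all Jchain-rich. It was at 1830 CPM in Intact, 1689 in VCD_High_PBDE_E2_P4, 37.7 in VCD_Low_PBDE and 28.3 in VCD_Low_E2. Intact and VCD_High_PBDE_E2_P4 held only 7 and 5 gated cells. For H2-Eb1, another class II gene, 1 cell held 309 of 338 UMIs in Intact and 64 of 89 in VCD_High_PBDE_E2_P4. Cell cycle genes were carried by a minority. At least 3 UMIs of the 5 cycle genes counted together were found in 27 of 267 gated cells (10.1%), against 8.44% of T cell gate and 0.802% of fibroblast gate cells. These cells were not thinned, and the gated cells had a median of 14874 UMIs against 5846 in the T cell gate. The 27 cells were 24 of the 240 Jchain-rich and 3 of the 27 Jchain-poor cells. Deep cells weigh more in summed levels, and 1 Jchain-poor cell held 68325 of the 412009 UMIs of its class. The 16 genes of the cell cycle list summed to 507 CPM in Jchain-rich, 1774 in Jchain-poor and 956 in T cell gate cells. Of these genes, 3 were higher in Jchain-rich cells than in the T cell gate, beside 41.3% of all genes of at least 50 CPM. Steroid receptors were sparse, with Esr1 in 3.75% and Pgr in 0.417% of Jchain-rich cells, against 49.8% and 8.66% of the fibroblast gate. Nr3c1, the glucocorticoid receptor gene, was found in 57.5%.

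Genes of other cell types were present in the gated cells, with those of fibroblasts, macrophages and T cells lower than in the gates of those cells. Over the libraries, the 12 fibroblast genes summed to 1068 to 4911 CPM, with Pdgfra at 0 by the rule, against 73656 CPM in the fibroblast gate. Their sum was 3311 CPM in Jchain-rich, 1812 in T cell gate and 1731 in Jchain-poor cells. In Jchain-rich cells 11 of the 12 were higher than in the T cell gate and 11 were higher than in Jchain-poor cells. Over all genes of at least 50 CPM the shares were 41.3% and 39.8%. The 12 macrophage genes summed to 435 to 2901 CPM against 39073 CPM in the C1q gate. Of the 10 T and NK cell genes, Cd3d, Cd3e and Cd3g were at 0 by the rule and the list summed to 0 to 197 CPM. The 8 epithelial genes summed to 52.0 to 424 CPM, the 6 endothelial genes to 28.4 to 352 CPM and the 8 dendritic cell genes, with Siglech at 0, to 5.66 to 178 CPM. Over all gated cells the epithelial genes summed to 156 CPM, above the T cell (43.1), C1q (49.9) and fibroblast (24.0) gates. Most of that sum was Epcam, at 129 CPM and with a UMI in 59.6% of the gated cells. Hemoglobin UMIs numbered 2 to 3321 over the gated cells of a library. In VCD_E2, 1 gated cell held 3271 hemoglobin UMIs, 98.5% of those in that library's gated cells, and in VCD_E2_P4 1 cell held 97.4%, but in VCD_Vehicle_NormEnv and VCD_Low_E2 the highest cell held 8.97% of 78 and 12% of 50 UMIs.

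**Figure D1:**
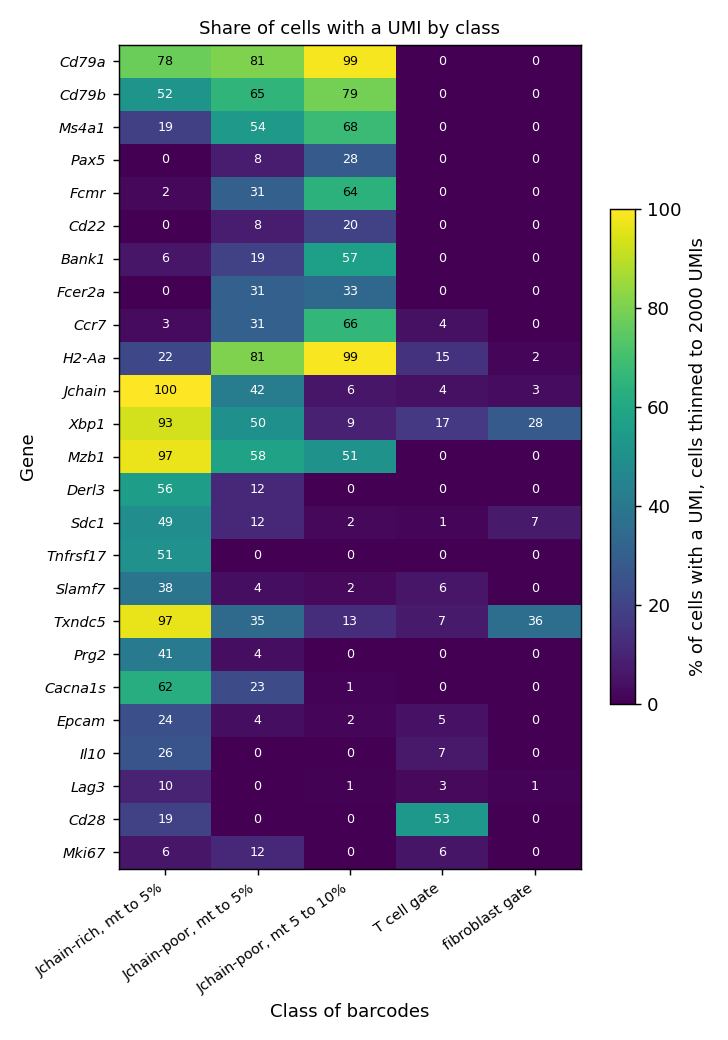
Percent of cells with at least 1 UMI (colour and printed value) for 25 genes (vertical axis) in 5 classes of barcodes (horizontal axis), after thinning each cell to 2000 UMIs. Derl3 is found in 56.1% of Jchain-rich cells and 0.272% of Jchain-poor barcodes with 5 to 10% mitochondrial (mt) UMIs, and Fcmr in 2.11% and 64.4%.

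The mitochondrial limit decided which cells the gate held. With the limit lifted, 744 barcodes met the other terms of the gate, of which 315 were Jchain-rich and 429 Jchain-poor. Of the Jchain-poor barcodes, 402 (93.7%) had more than 5% mitochondrial UMIs, with a median of 7.32% over all of them. Of the Jchain-rich barcodes, 75 (23.8%) did, with a median of 4.15%. For comparison, 1235 of 3783 barcodes of the T cell gate (32.6%, median 4.35%) were above the limit. The limit thus took a larger share of the Jchain-poor barcodes than of the Jchain-rich barcodes or of the T cell gate.

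**Figure D2:**
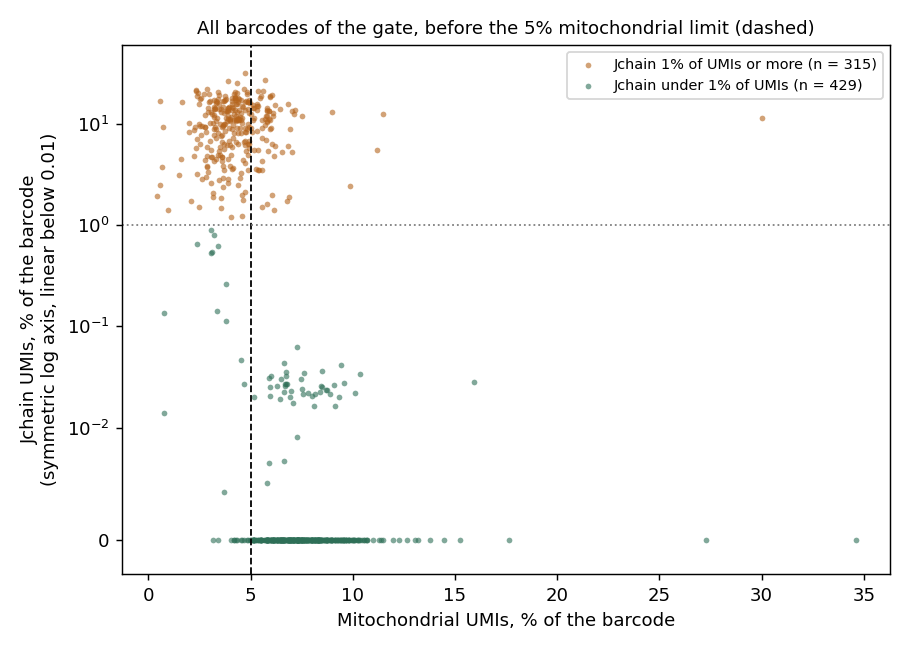
Jchain UMIs (percent of the barcode, symmetric log axis) against mitochondrial UMIs (percent of the barcode) for the 744 barcodes of the gate at any mitochondrial share, with the 5% limit dashed and the 1% Jchain boundary dotted. Most of the 315 Jchain-rich barcodes lie left of the limit and most of the 429 Jchain-poor barcodes lie right of it.

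The Jchain-poor barcodes between 5 and 10% mitochondrial UMIs carried the B cell genes that were scarce in the Jchain-rich cells. Among these 368 barcodes, Ccr7 had a UMI in 84.2%, Bank1 in 84.2%, Fcmr in 84.0%, Fcer2a in 55.4%, Pax5 in 47.8% and Cd22 in 40.5%. In the T cell gate, Fcmr was found in 0.0392%, Pax5 in 0.0785% and Fcer2a in 0.118% of cells. H2-Aa was found in 99.5% of the 368 barcodes, at 5414 CPM. Genes of the plasma cell list were low in them, with Xbp1 at 46.9 CPM, Derl3 at 1.70 CPM and no UMI of Tnfrsf17, and the cycle gene Mki67 had no UMI either, which allows for each a share of up to 0.815% of barcodes with a UMI and sets no limit on the share that expressed it.

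These Jchain-poor barcodes were spread unevenly over the libraries. Up to 10% mitochondrial UMIs, they numbered 152 of 4468 barcodes in VCD_E2 (3.40%, 95% exact binomial interval 2.89 to 3.98%) and 60 of 3392 in VCD_E2_ICI (1.77%, 1.35 to 2.27%). The other 10 libraries held 0.203 to 0.832%, with VCD_Vehicle at 0.657%, VCD_E2_P4 at 0.312% and VCD_Low_E2 at 0.551%. All intervals cover counting error only, and with 1 library for each group the difference has no replicate. Among T cell gate barcodes under the same limit, Ccr7 had a UMI in 17.1% in VCD_E2 and 19.2% in VCD_E2_ICI, against 7.61 to 15.8% in the other 10. Lef1, another gene of naive T cells, did not set VCD_E2 apart, at 20.7% there, 30.7% in VCD_E2_ICI and 15.8 to 26.5% in the other 10. The part of lymph node cells in these counts was not tested.

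**Figure D3:**
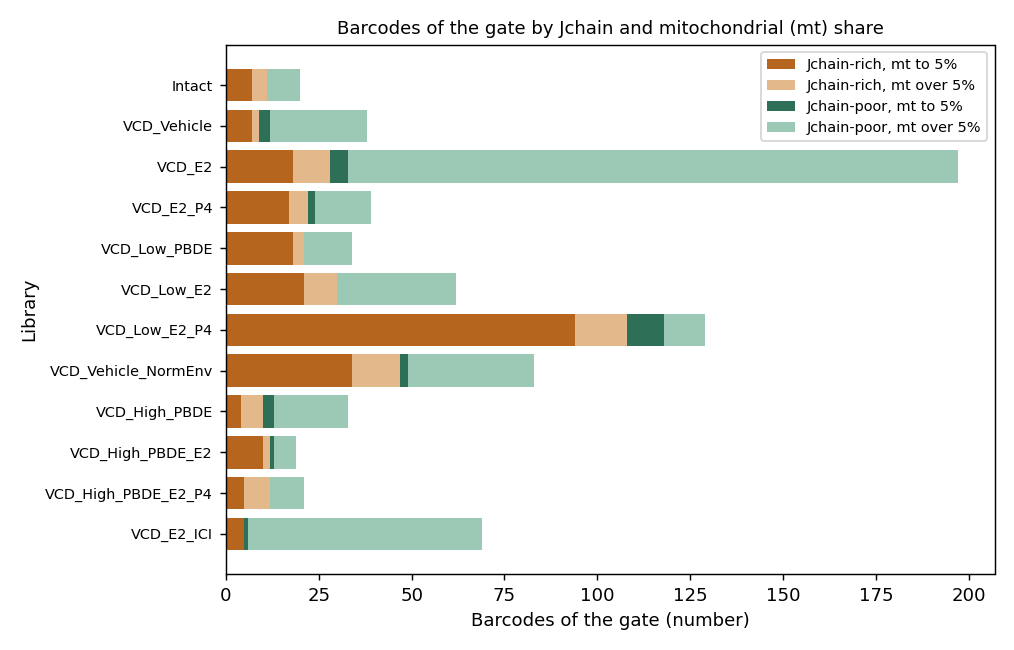
Number of barcodes of the gate (horizontal axis) in each of the 12 libraries (vertical axis), split by Jchain share (rich, at least 1% of UMIs) and by the 5% mitochondrial (mt) limit. The bars of VCD_E2 (197 barcodes) and VCD_E2_ICI (69) consist mostly of Jchain-poor barcodes over the limit, and the bar of VCD_Low_E2_P4 (129) mostly of Jchain-rich barcodes under it.

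The share of gated cells among kept barcodes was lowest in Intact, at 7 of 3458 or 0.202% (95% exact binomial interval 0.0814 to 0.417%), and highest in VCD_Low_E2_P4, at 104 of 7570 or 1.37% (95% exact binomial interval 1.12 to 1.66%). The latter library held 39.0% of all gated cells. Shares without PBDE were 0.262% in VCD_Vehicle, 0.627% in VCD_E2 and 0.434% in VCD_E2_P4. At low PBDE they were 0.364% without hormone and 0.491% with E2, and at high PBDE 0.230% in VCD_High_PBDE, 0.417% in VCD_High_PBDE_E2 and 0.251% in VCD_High_PBDE_E2_P4. VCD_E2_ICI was at 0.212%. VCD_Vehicle_NormEnv, at 0.990% (95% exact binomial interval 0.694 to 1.37%), lay above the interval of VCD_Vehicle (0.126 to 0.481%).

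**Figure D4:**
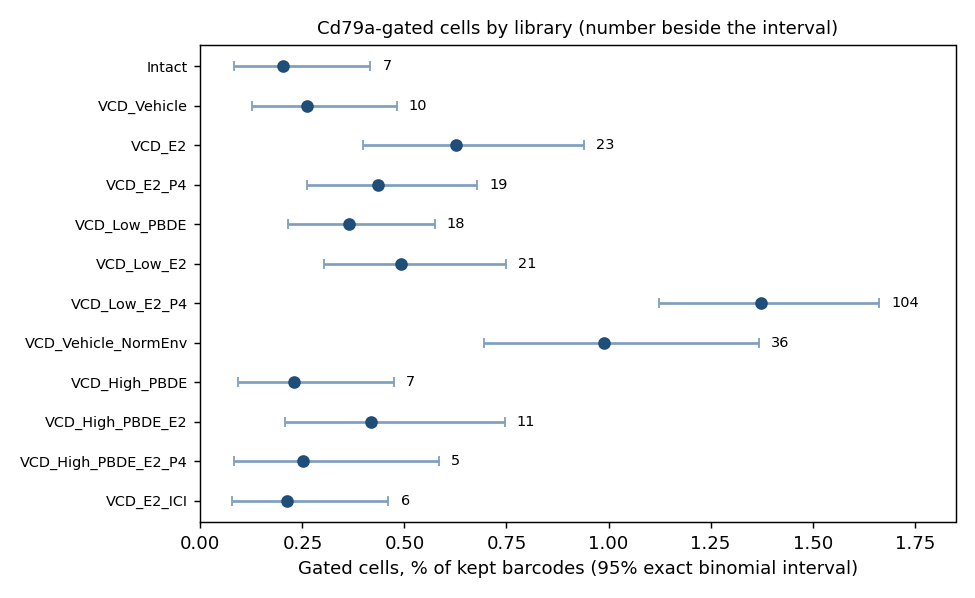
Gated cells as a percent of kept barcodes (horizontal axis) in each of the 12 libraries (vertical axis), with exact binomial 95% intervals and the number of gated cells beside each. VCD_Low_E2_P4 (1.37%) and VCD_Vehicle_NormEnv (0.990%) lie above the other 10 libraries, which lie between 0.202% and 0.627%.

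Whether hormones or PBDEs went with the share was tested on the 9 VCD libraries that form a full layout of 3 hormone states by 3 PBDE states, where libraries of the other factor stand in for replicates. With E2, alone or with P4, the log2 share was higher than without hormone by 0.89, in 3 of 3 PBDE states (two-sided exact permutation p = 0.0741 over 27 arrangements, adjusted p = 0.296 over the 4 comparisons). Measured against immune cells in place of all kept barcodes, that difference was 0.43 (exact permutation p = 0.556). At a mitochondrial limit of 10% it was 0.65 (exact permutation p = 0.407). Under either setting the share was higher with E2 in 2 of 3 PBDE states. For P4 added to E2 the difference was 0.07 (exact permutation p = 1), and without VCD_Low_E2 or without VCD_Low_E2_P4 it was -0.63. Low PBDE differed from none by 0.59 (exact permutation p = 0.5, adjusted p = 0.667), by 0.06 without VCD_Low_E2_P4 or VCD_E2_P4, and by 1.07 without VCD_E2 or VCD_Low_E2. With VCD_Vehicle_NormEnv, whose cages could be a source of PBDEs, added as a library without PBDE it was 0.27, and for all Jchain-rich barcodes 1.18. At a mitochondrial limit of 10% it reversed to -0.47, with low PBDE higher in 1 of 3 hormone states. High PBDE differed from none by -0.52 (exact permutation p = 0.25, adjusted p = 0.5), and by -0.11 with immune cells as the denominator (exact permutation p = 0.5). The last 3 comparisons have 8 arrangements each and cannot go below a p of 0.25, and none of the 4 passed 0.05.

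Jchain outside the gate was highest in the same libraries that had the highest shares. In fibroblast gate cells, Jchain was at 129.7 CPM in VCD_Low_E2_P4 and 126 CPM in VCD_Vehicle_NormEnv, and at 5.67 to 21.3 CPM in the other 10. Barcodes with at least 1% Jchain made up 5.68% and 1.98% of kept barcodes in these libraries and 0.376 to 1.33% elsewhere. In all, 525 of 765 kept Jchain-rich barcodes lay outside the gate. Of them, 290 met its Cd79 terms and were left out for Pdgfra, Cd3 or C1q UMIs, and 235 did not meet the Cd79 terms and had a median of 2731 UMIs. The part of free Jchain transcripts in these counts was not tested.

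Expression within the gated cells was compared on UMIs summed per library. VCD_High_PBDE and VCD_High_PBDE_E2_P4 had under 10 gated cells and were left out, so 7 libraries with 2 residual degrees of freedom were fitted, and high PBDE rested on VCD_High_PBDE_E2 alone. Of 5280 genes tested with edgeR's quasi-likelihood test, 0 passed an adjusted p of 0.05 for E2 against no hormone, for P4 added to E2 or for high PBDE against none (0% of genes called in each), and 1 passed for low PBDE against none (0.0189% of genes called). At an unadjusted p under 0.05 there were 270 genes for E2, 183 for P4, 351 for high PBDE and 236 for low PBDE. DESeq2 called 3, 1, 3 and 3 genes in the same order. Of the genes of the 26 lists examined, 0 passed in any of the 4 comparisons.

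The gene that passed was Cxcl10 (chromosome 5, 92346638 to 92348889), an interferon-inducible chemokine that draws CXCR3-bearing lymphocytes. Its level was 85.4 CPM in VCD_Vehicle, 157 in VCD_E2 and 24.4 in VCD_E2_P4, against 244 in VCD_Low_PBDE, 1021 in VCD_Low_E2 and 182 in VCD_Low_E2_P4. Low PBDE was higher at each hormone state, but the gene was chosen by its p-value in these libraries, so this order is a description. The log2 fold change was 2.36 (SE 0.27, edgeR adjusted p = 0.0374). VCD_Vehicle_NormEnv, whose cages could be a source of PBDEs, lay within the low PBDE range at 241 CPM. The call was lost when that library was added as one without PBDE (log2 1.73, edgeR adjusted p = 0.407). It was also lost with the suffix of the deposited library name as a term (log2 1.61, edgeR adjusted p = 0.919), with all 9 libraries (log2 2.29, edgeR adjusted p = 0.222), in Jchain-rich cells alone (log2 2.24, edgeR adjusted p = 0.255) and without VCD_Vehicle, VCD_Low_PBDE or VCD_High_PBDE_E2 (edgeR adjusted p = 0.119, 0.115 and 0.0627). The names carry 1 of 2 suffixes, whose meaning was not given in the sources used here, and VCD_Low_E2 and VCD_Low_E2_P4 differ in it from VCD_Low_PBDE and the 3 libraries without PBDE, so low PBDE and the suffix can be told apart only through VCD_Low_PBDE. In VCD_Low_PBDE 1 cell held 44 of the 84 UMIs, in VCD_Low_E2 122 of 361 and in VCD_E2 29 of 59. In T cell gate cells Cxcl10 was at 23.3, 71.8 and 91.8 CPM in VCD_Vehicle, VCD_E2 and VCD_E2_P4. At low PBDE it was at 95.8, 96.4 and 96.1 CPM there. In fibroblast gate cells it was at 99.6, 144 and 281 CPM against 79.7, 239 and 228 CPM, higher at low PBDE with E2 only. With P4 added to E2, Cxcl10 did not pass (log2 -2.46, SE 0.31, edgeR adjusted p = 0.0751), and the third pair, outside the fit, went the other way, at 168 CPM in VCD_High_PBDE_E2 and 200.4 CPM in VCD_High_PBDE_E2_P4.

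The other 9 of the 10 smallest p-values at low PBDE, none of which passed, were those of Hbb-bs, Hba-a2, H2-Eb1, Rrad, Gbp2, Hba-a1, Vps37b, Socs1 and Ccl7. Gbp2, a guanylate-binding GTPase gene, was at 38.8, 74.6 and 24.4 CPM in VCD_Vehicle, VCD_E2 and VCD_E2_P4 and at 165, 204 and 126 CPM in the low PBDE libraries of the same hormones (log2 1.78, SE 0.29, edgeR adjusted p = 0.0970). Socs1, an inhibitor of cytokine signalling, was at 15.5, 16.0 and 24.4 CPM against 179.9, 76.4 and 65.5 CPM (log2 2.15, SE 0.40, edgeR adjusted p = 0.154). Both genes were chosen by their p-values in these libraries, so the order of the groups is a description. In VCD_Low_PBDE, 1 cell held 37 of the 62 Socs1 UMIs. In VCD_High_PBDE_E2, Socs1 was at 276 CPM, of which 1 cell held 64 of 69 UMIs. Over the 22 tested genes of the interferon list, the median log2 difference at low PBDE was 0.02, beside 0.01 over all genes. For E2 that median was 0.94, with 21 of 22 above the median of all genes, and for high PBDE -1.43, with 1 above. The interferon values stood beside differences in markers of other cell types. For E2 the fibroblast genes had a median of 1.16 (10 of 11 above the median of all genes), the macrophage genes 0.90 (6 of 7) and the erythroid and granulocyte genes 4.80 (3 of 3). For high PBDE the same medians were -0.91 (0 of 11), 0.03 (4 of 7) and -6.27 (0 of 3). No gene of these lists passed in either comparison, and the part of other cells in the interferon values was not tested.

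No MHC class II gene passed at low PBDE. H2-Eb1, a chain of the I-E molecule, was at 823, 714 and 610.2 CPM in VCD_Vehicle, VCD_E2 and VCD_E2_P4 and at 151, 133 and 316 CPM at low PBDE (log2 -1.95, SE 0.29, edgeR adjusted p = 0.0879). H2-Aa was at 598, 967 and 485 CPM against 37.7, 28.3 and 279.9 CPM. The highest cell held 36 of 106, 116 of 268 and 59 of 175 H2-Eb1 UMIs without PBDE. At low PBDE it held 6 of 52, 9 of 47 and 37 of 473. H2-Eb1 was chosen by its p-value in these libraries, so the order of the groups is a description. VCD_Vehicle_NormEnv, whose cages could be a source of PBDEs, lay within the low PBDE range for either gene, at 282 and 239 CPM. Of the 10 tested genes of the class II list, 0 were above the median of all genes, 0 passed, and their median log2 difference was -1.48. The low PBDE libraries held 0, 0 and 10 Jchain-poor cells, against 3, 5 and 2 without PBDE, and in Jchain-rich cells alone the H2-Eb1 difference was -0.93 on the log2 scale.

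For E2 against no hormone the smallest p-values belonged to Plac8, Hspa1b, Ifitm3 and Hbb-bs, none of which passed. Plac8, a gene of myeloid and lymphoid cells, was at 46.6 and 49.3 CPM in VCD_Vehicle and VCD_Low_PBDE and at 64.0 to 568 CPM in the 5 hormone libraries fitted (log2 2.52, SE 0.34, edgeR adjusted p = 0.126). VCD_High_PBDE, the library without hormone left out of the fit for its 7 gated cells, was at 431 CPM, and with all 9 libraries the log2 value was 0.74, and 0.35 at a mitochondrial limit of 10%. In fibroblast gate cells Plac8 was at 330.3 and 299.9 CPM without hormone and at 629 to 959 CPM in those 5, but in T cell gate cells the groups overlapped, at 172 and 85.6 CPM against 108 to 234 CPM. Ifitm3, an interferon-inducible membrane gene, was at 148 and 107 CPM against 260.0 to 535 CPM (log2 1.67, SE 0.26, edgeR adjusted p = 0.126). In VCD_High_PBDE it was at 289.6 CPM, within the range of the hormone libraries. T cell gate cells had Ifitm3 at 372 and 387 CPM without hormone and at 536 to 914 CPM in those 5. Fibroblast gate cells had it at 2224 and 1772 CPM against 2002 to 3011 CPM. Hspa1b, an inducible heat shock gene, was at 536 and 870.3 CPM against 100.2 to 368 CPM (log2 -1.88, SE 0.28, edgeR adjusted p = 0.126), and Prg2 at 637 and 542 CPM against 192 to 349 CPM (log2 -1.31, SE 0.26, edgeR adjusted p = 0.399). VCD_High_PBDE was at 356 CPM of Hspa1b, within the range of the hormone libraries, and at 171 CPM of Prg2, below all of them. Hspa1b was at 392 and 565 CPM against 156 to 428 CPM in fibroblast gate cells. T cell gate cells had it at 296 and 780 CPM against 226 to 648 CPM. The log2 value of Prg2 was -0.69 with all 9 libraries and -0.21 at the 10% limit. Hbb-bs, a hemoglobin gene, was at 23.3 and 11.6 CPM without hormone and at 4523 CPM in VCD_E2, where 1 cell held 1668 of its 1698 UMIs. In VCD_E2_P4 it was at 669 CPM, with 186 of 192 UMIs in 1 cell. The levels were 102 CPM in VCD_Low_E2, 62.8 in VCD_Low_E2_P4 and 44.0 in VCD_High_PBDE_E2. The log2 value was 5.02 (SE 0.79, edgeR adjusted p = 0.126), and 2.73 to 6.34 with 1 library left out.

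For P4 added to E2, Bcl2l11, which encodes the pro-apoptotic protein BIM, was at 205 CPM in VCD_E2 and 48.8 in VCD_E2_P4, and at 317 in VCD_Low_E2 and 124 in VCD_Low_E2_P4 (log2 -1.58, SE 0.27, edgeR adjusted p = 0.546). Epcam was at 168 and 90.7 CPM and at 407 and 109 CPM in the same pairs (log2 -1.47, SE 0.35, edgeR adjusted p = 0.956), and the log2 value was -0.67 without VCD_Low_E2. Both were lower with P4 in both pairs fitted, and neither passed. In the third pair, outside the fit, Bcl2l11 went the other way, at 104 CPM in VCD_High_PBDE_E2 and 286 CPM in VCD_High_PBDE_E2_P4, and Epcam was at 124 and 71.6 CPM. The cycle gene Ube2c did not pass either (log2 1.96, SE 0.37, edgeR adjusted p = 0.727), and in VCD_E2_P4 its 17 UMIs came from 1 cell. For high PBDE, AY036118 (log2 -4.00, SE 0.63, edgeR adjusted p = 0.137) was among the 10 smallest p-values, and it was low in the other cell classes of the same libraries. Bhlhe40, a transcription factor gene, was at 264 CPM in VCD_High_PBDE_E2 and at 36.8 to 124 CPM in the other 6 libraries fitted (log2 2.49, SE 0.36, edgeR adjusted p = 0.0913), and 1 cell held 26 of the 66 UMIs. VCD_High_PBDE and VCD_High_PBDE_E2_P4, outside the fit, were at 37.1 and 71.6 CPM, within the range of those 6, and with all 9 libraries the log2 value was 0.93.

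**Figure D5:**
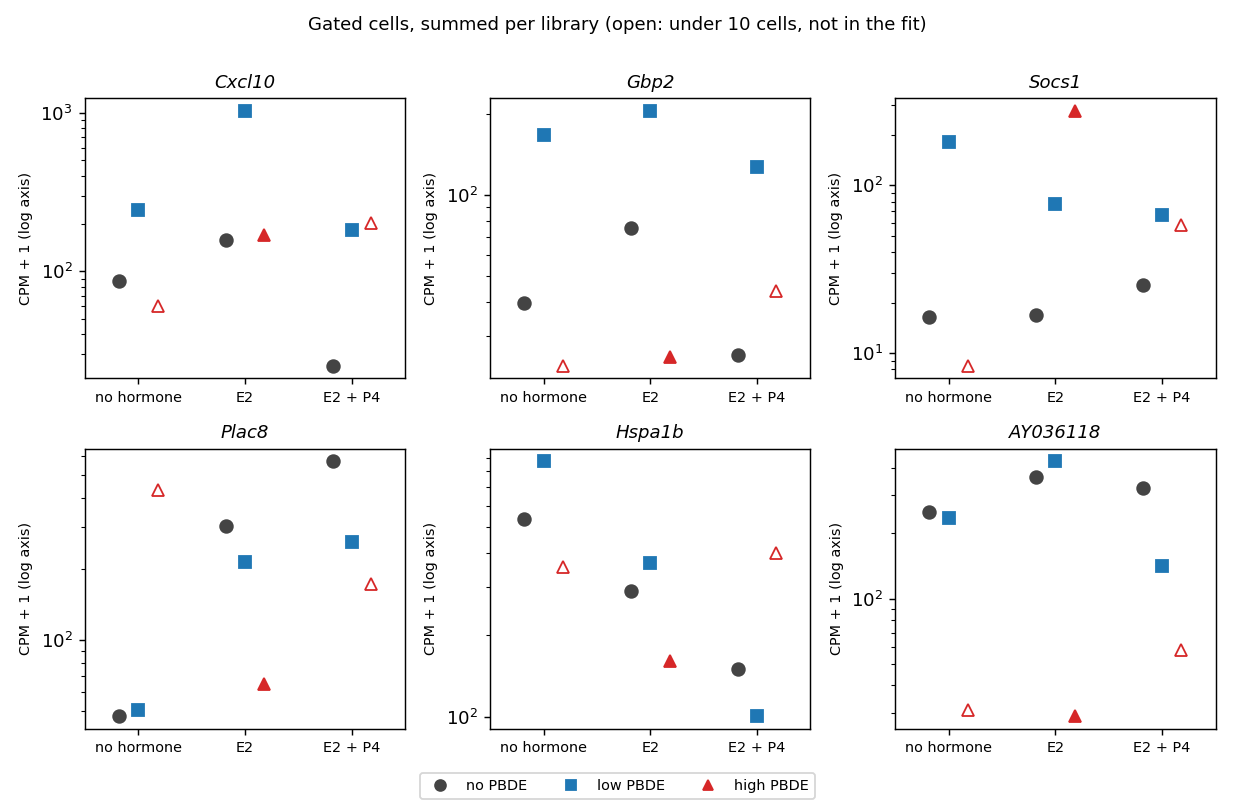
Level (CPM + 1, log axis) of 6 genes in the gated cells of the 9 VCD libraries of the layout, by hormone state (horizontal axis) and PBDE state (symbols), 1 point for each library, open where under 10 cells kept it out of the fit. Cxcl10, Gbp2 and Socs1 are higher at low PBDE than without PBDE at each hormone state, and AY036118 is lowest in the 3 high PBDE libraries.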

How the data were processed

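The deposited files hold 1 matrix of raw UMI counts per gene and barcode for each library, which the authors made from Chromium 3′ reads with Cell Ranger 3.1.0 on mm10 according to the submitters' processing notes. Counts were used as deposited. The barcode limits follow the study's methods, and libraries were grouped by their labels. The members and gene lists were chosen with earlier results of these data known. Doublets were not called. Some genes are not reported here. UMIs of the gated cells were summed per library (at least 10 cells) and fitted with edgeR 4.0.16 (R 4.3.3, TMM, quasi-likelihood, additive hormone and PBDE terms, Benjamini-Hochberg adjustment), with DESeq2 1.42.0 as an alternative. The scripts were tested on simulated data. Shares were compared by an exact permutation test within the states of the other factor. With 1 library for each group, p-values measure the spread between libraries of different groups and not between animals. Named genes are those of the gate, the 20 leading genes, list members, and the 10 smallest p-values at a mean of at least 50 CPM in each comparison. Alternatives covered normalization, filtering, the gate, the mitochondrial limit, likely doublets and the libraries used. Precision is set by the 5 to 104 gated cells per library, with 69862 to 1496911 UMIs.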

Additional observations from a re-analysis of the deposited data

Results flagged for a closer look

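The log2 difference in the share of gated cells changed sign between the states of the other factor in 2 of the comparisons, with 1 library on each side, and these differences were not tested. P4 added to E2 gave -0.53 without PBDE, 1.48 at low PBDE and -0.74 at high PBDE. Low PBDE against none gave 0.47 without hormone, -0.35 with E2 and 1.66 with E2 and P4.

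Barcodes outside the comparisons also carried the signal. Of the barcodes meeting the gate apart from the mitochondrial limit, 477 lay above it, and 402 of these were Jchain-poor. A further 525 kept barcodes were Jchain-rich and outside the gate.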

How the results depend on the processing

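The share differences for E2 and high PBDE kept the direction of their mean in all 16 settings tried for each, but not their size. High PBDE gave -0.11 with immune cells as the denominator, -0.19 for the gate without its exclusions and -0.07 for all Jchain-rich barcodes. It gave -0.84 with VCD_Vehicle_NormEnv and -0.82 at a mitochondrial limit of 10%, where the share was higher with high PBDE in 2 of 3 hormone states (exact permutation p = 1). E2 gave 0.43 with immune cells as the denominator, 0.65 at the 10% limit and 0.90 for the gate without its exclusions. In each of these the share was higher with E2 in 2 of 3 PBDE states. With VCD_Vehicle_NormEnv, E2 gave 0.57 (exact permutation p = 0.315). Low PBDE gave 0.27 with VCD_Vehicle_NormEnv and 1.18 for all Jchain-rich barcodes, and reversed to -0.47 with a mitochondrial limit of 10%, and P4 reversed to -0.13 with a stricter gate and to -0.53 with that limit. Leaving out 1 library at a time gave 0.64 to 1.13 for E2, -0.63 to 0.48 for P4, 0.06 to 1.07 for low PBDE and -0.69 to -0.39 for high PBDE. For E2, counting Jchain-rich cells alone gave 1.19 (exact permutation p = 0.0370, the smallest that 27 arrangements allow), an alternative chosen after seeing the data, as were the gate without its exclusions, all Jchain-rich barcodes and all 9 libraries.

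The number of genes called moved with most settings. For E2 it was 3 with DESeq2, 66 with no filter on low counts, 2 with the stricter gate, 4 with VCD_Vehicle_NormEnv added and 1 with the library name suffix as a term. For P4 it was 1 with DESeq2, 24 with no filter, 1 with Jchain left out and 1 with the stricter gate. For low PBDE it was 2 with DESeq2 size factors, 3 with DESeq2, 58 with no filter, 4 with Jchain left out, 8 with the stricter gate, 6 without cells of over 2 times the median UMIs, 61 at the 10% limit, 7 with VCD_Vehicle_NormEnv, and 0, 0 and 0 with the suffix, all 9 libraries and Jchain-rich cells alone. For high PBDE the same settings from DESeq2 on gave 3, 67, 1, 6, 14, 1, 5, 1, 1 and 4. Leaving out 1 library gave 0 to 99 genes for E2, 0 to 56 for P4, 0 to 83 for low PBDE and 0 to 83 for high PBDE. The cause was not tested.

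Named genes reversed in these cases, with log2 values: for P4, Ube2c (-0.60) and Hmgb2 (-0.073) without cells of high UMIs, and Ccrl2 (0.14) and Ms4a1 (-0.68) at the 10% limit. For low PBDE, Hba-a2 (4.59) and Hba-a1 (5.15) reversed with the suffix and Vps37b (0.044) in Jchain-rich cells alone, and for high PBDE Hba-a2 (2.65) with the suffix. Without reversing, at the 10% limit Plac8 (0.35), Prg2 (-0.21), Ifitm3 (1.00) and Hspa1b (-1.23) for E2, Bcl2l11 (-0.53), Cxcl10 (-0.44) and Epcam (-0.77) for P4 and Bhlhe40 (0.79) for high PBDE moved by over 1.5 times, and with all 9 libraries so did Plac8 (0.74), Prg2 (-0.69), Ifitm3 (1.08), Bcl2l11 (-0.78) and Bhlhe40 (0.93). Cxcl10 at low PBDE kept its direction in 18 of 18 settings and passed in 11, with adjusted p from 1.09e-14 to 0.919.

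No paired analysis was possible because each group has 1 library and 1 replicate number. The split by Ighd was not run, since that gene is not among the genes analysed here. Count fits without VCD_High_PBDE or VCD_High_PBDE_E2_P4 were not run because neither was in the fit, and high PBDE without VCD_High_PBDE_E2 cannot be estimated.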
